A study of Mus musculus with 8 samples.

Results

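The regions described here are 347 peaks of accessible chromatin that were open in young haematopoietic stem cells (HSCs) and mostly closed in old ones, out of 126871 peaks measured. They were chosen by their measured levels in CPM, the reads of a peak scaled to 1000000 reads of its library over all peaks. A member had a mean of at least 5 CPM over the young libraries and a mean below 2 CPM over the old libraries. The difference between old and young at the members is therefore a description and not a finding. What the rule did not use is the position, width and surroundings of the members, the behaviour of single libraries, and the peaks next to them.

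Chromatin accessibility was measured by ATAC-seq, in which a transposase inserts sequencing adapters where DNA is not wrapped tightly, so that reads pile up at promoters, enhancers and other regulatory sites. HSCs sit at the top of blood formation and divide rarely. With age they are known to grow in number, to lose regenerative capacity per cell and to produce more myeloid and fewer lymphoid cells. A peak that closes marks a site where fewer cells, or fewer chromosomes per cell, carry accessible DNA, and bulk libraries cannot tell these apart.

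The 2 groups were 4 libraries of old HSCs and 4 libraries of young HSCs, all from bone marrow of C57BL/6 mice and all sorted as LSK CD150+ CD48- cells. That gate takes marrow cells with Sca-1 and Kit that carry the SLAM marker CD150 and lack CD48. The labels give replicate numbers 1 to 4 in each group but no age or sex, and nothing says that replicates came from separate mice. Any p-value therefore rests on the variation among these 8 libraries, part of which may be technical, and age cannot be told apart from other differences between the groups. Library totals ran from 4200905 to 5129684 counts, so that 3 counts, the limit that a count of 0 allows, correspond to between 0.585 and 0.714 CPM. Such limits cover counting error only. 2 libraries stood apart at the members: old replicate 4 and young replicate 2 lay between the other libraries of the groups, so results that rest on them are also given without them. Positions are in the mouse build mm9, as given by the submitters. No gene annotation or sequence of that build was used here, so the members are named by position, no gene is assigned to them, and the sorted identity was not checked against marker genes.

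Most members were weak for peaks with at least 5 CPM in young libraries, though not among all peaks. Over all 126871 peaks the mean young level had a median of 2.66 CPM and an upper quartile of 7.49 CPM. The mean old level of the members had a median of 1.62 CPM, between 0.319 and 1.9988. Their mean young level had a median of 5.65 CPM, between 5.0016 and 14.8. Other peaks with a mean of at least 5 CPM in young libraries numbered 42076 and had medians of 12.2 CPM in old and 12.5 CPM in the young libraries. The young mean was a median of 3.86 times the old mean at the members. It was more than 5 times the old mean at 81 of 347 members and more than 10 times at 11. Only 11 members reached 10 CPM in young libraries, and 39 had an old mean below 1 CPM.

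**Figure D1:**
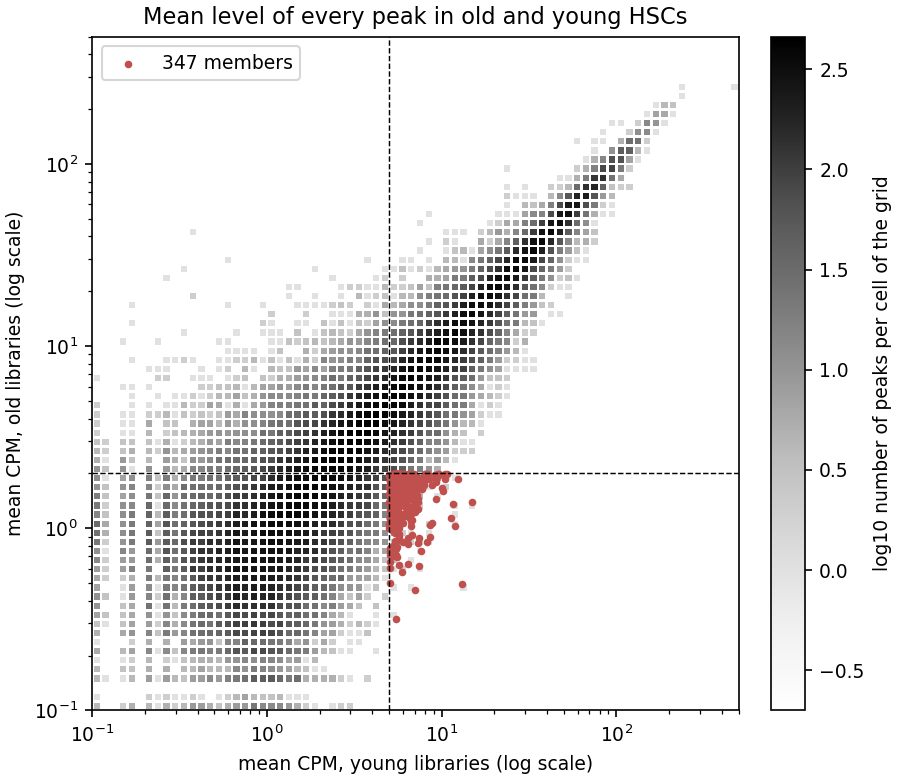
Mean CPM of each peak in old libraries (vertical, log scale) against young libraries (horizontal, log scale); grey squares are bins of peaks, darker with more peaks, and peaks under 0.1 CPM on either axis are not drawn. The 347 members, in red, fill the corner right of the dashed line at 5 CPM and below the dashed line at 2 CPM, at the edge of a continuous cloud.

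The thresholds passed through a continuum. Of peaks with at least 5 CPM in young libraries, 98 had an old mean of 1 to 1.5 CPM, 210 had 1.5 to 2 CPM, 392 had 2 to 2.5 CPM and 525 had 2.5 to 3 CPM. Likewise, of peaks with an old mean below 2 CPM, 595 had a young mean of 4 to 5 CPM, against 218 with 5 to 6 CPM and 68 with 6 to 7 CPM. Just inside the old threshold lay the peaks at chr6:54478338-54479106, with 1.9988 CPM in old and 5.46 CPM in the young libraries, and at chr5:125793530-125794041, with 1.9964 and 5.37 CPM. Just outside it were chr1:178752018-178752477, with 2.0001 CPM in old and 5.80 CPM in the young libraries, and chr10:129751225-129751873, with 2.0008 and 7.60 CPM. On either side of the old threshold, then, the old levels were nearly the same. At the young threshold, chr2:127911133-127911615 was a member with 1.001 CPM in old and 5.0016 CPM in the young libraries, as was chr1:168062336-168062887 with 1.97 and 5.0024 CPM. The nearest peaks under that threshold were chr15:84180681-84181079, with 1.76 CPM in old and 4.9933 CPM in the young libraries, and chr5:144291657-144291857, with 1.26 and 4.9926 CPM.

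At the member with the highest young mean, chr5:114226911-114227268, the 4 old libraries had 0.476, 0.786, 0.430 and 3.90 CPM and the 4 young libraries 14.4, 9.82, 18.2 and 16.9 CPM. The groups did not overlap, and the fourth old library was the highest old one. At chr6:113467500-113468165 the old libraries had 0, 0.197, 0.215 and 1.56 CPM, against 16.2, 5.41, 12.8 and 17.5 CPM in the young ones. This member, 666 bases wide, had the highest ratio of all, with 10 counts summed over the old libraries and 240 over the young ones. Its fitted log2 fold change, old minus young, was -4.54 ± 0.63. The second value is an approximate SE, the size of the fold change divided by the square root of the edgeR test's F statistic.

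The member at chr16:14088242-14088844 was low in every old library, at 0.714, 1.18, 0.860 and 1.36 CPM, against 16.2, 9.41, 10.4 and 11.4 CPM in young libraries. At chr11:116120745-116121250 the old libraries had 1.67, 1.57, 1.07 and 3.12 CPM and the young ones 11.8, 9.62, 11.1 and 17.1 CPM. Neither member had overlapping groups. At chr2:28651852-28652242 the old libraries had 0.952, 0.786, 0.645 and 2.14 CPM, against 12.6, 6.81, 13.0 and 12.9 CPM in the young ones. At chr1:93948755-93949210 they had 1.19, 1.57, 1.505 and 3.70 CPM in old and 10.2, 7.81, 13.9 and 10.8 CPM in the young libraries. In both of these the lowest young library was the second one. The groups came closer at chr13:19311251-19312125, with 2.14, 0.590, 0.860 and 3.90 CPM in old and 8.21, 5.01, 14.9 and 13.7 CPM in the young libraries.

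The peak at chr4:134748676-134749222 was a member whose groups overlapped. Its old libraries had 0.714, 0, 0.215 and 4.48 CPM and its young libraries 15.7, 3.21, 10.6 and 16.5 CPM. Old replicate 4 lay above young replicate 2 there, while the other 3 libraries of each group were far apart.

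**Figure D2:**
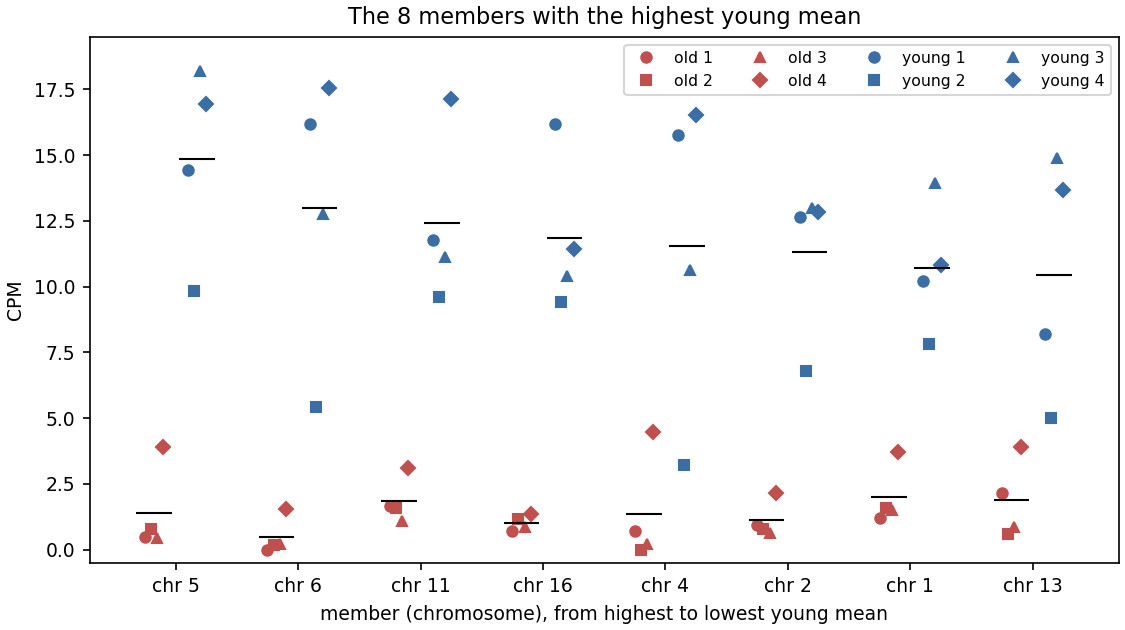
CPM in each library at the 8 members with the highest young mean, with old libraries in red on the left and young libraries in blue on the right of each position; symbols mark replicate numbers and black lines the group means. Old replicate 4 (red diamonds) is the highest old library at all 8 members, and young replicate 2 (blue squares) is the lowest young library at all 8.

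The members with the lowest old levels were close to the limit of detection. The lowest old mean was at chr9:21615515-21615912, with 0.476, 0, 0.215 and 0.585 CPM in old libraries, from 6 counts, and 4.88, 5.21, 3.78 and 7.96 CPM in young ones, from 103 counts. At chr6:146061599-146061998 the old libraries had 0.238, 0.393, 0.215 and 0.975 CPM, against 6.21, 4.81, 8.98 and 8.16 CPM in young libraries. At chr5:92023089-92023503 they had 0.238, 0, 1.07 and 0.975 CPM in old and 3.77, 5.81, 7.09 and 7.14 CPM in the young libraries. All 3 had groups that did not overlap. At chr18:54781865-54782442 the old libraries had 0.238, 0.786, 0 and 0.975 CPM and the young ones 5.102, 4.61, 6.15 and 4.28 CPM. Young levels were even at chr11:72565252-72565899, with 0.952, 1.77, 1.29 and 1.75 CPM in old libraries and 9.76, 8.01, 10.9 and 8.57 CPM in young ones. The young libraries were also alike at chr13:102078625-102079100, with 0.714, 1.57, 2.15 and 1.95 CPM in old libraries and 11.3, 8.81, 10.9 and 9.59 CPM in young ones. No member was at 0 in all old libraries: 4 had no count in old replicate 1, 10 in replicate 2, 5 in replicate 3 and 0 in replicate 4.

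Old replicate 4 was only partly closed at the members. Its median over the 347 members was 2.53 CPM, against 1.19, 1.18 and 1.07 CPM in old replicates 1, 2 and 3, and against 5.99, 4.61, 6.15 and 6.73 CPM in young replicates 1 to 4. Summed over the members, the old libraries had 413, 399, 395 and 902 CPM and the young libraries 2216, 1653, 2261 and 2438 CPM. The sum in old replicate 4 was thus the highest of the old ones, and the sum in young replicate 2 the lowest of the young ones. The summed levels of the groups did not overlap.

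Which library of a group lay at the edge was not fixed by the rule, which used means. Old replicate 4 was the highest old library at 77.2% of members, against 33.2% of the other peaks with at least 5 CPM in young libraries. Young replicate 2 was the lowest young library at 63.7% of members, against 25.7% of those other peaks. Both held at 172 of the 347 members, and at 32 members old replicate 4 lay above young replicate 2. Old replicate 4 was at least 2 times each other old library at 115 members. For the counts of 172, 32 and 115 the shares over other peaks are not given here, so nothing is read from them. In the same libraries the median of the other peaks open in young cells was level, from 12.2 to 12.5 CPM in old and 12.4 to 12.6 CPM in the young libraries.

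**Figure D3:**
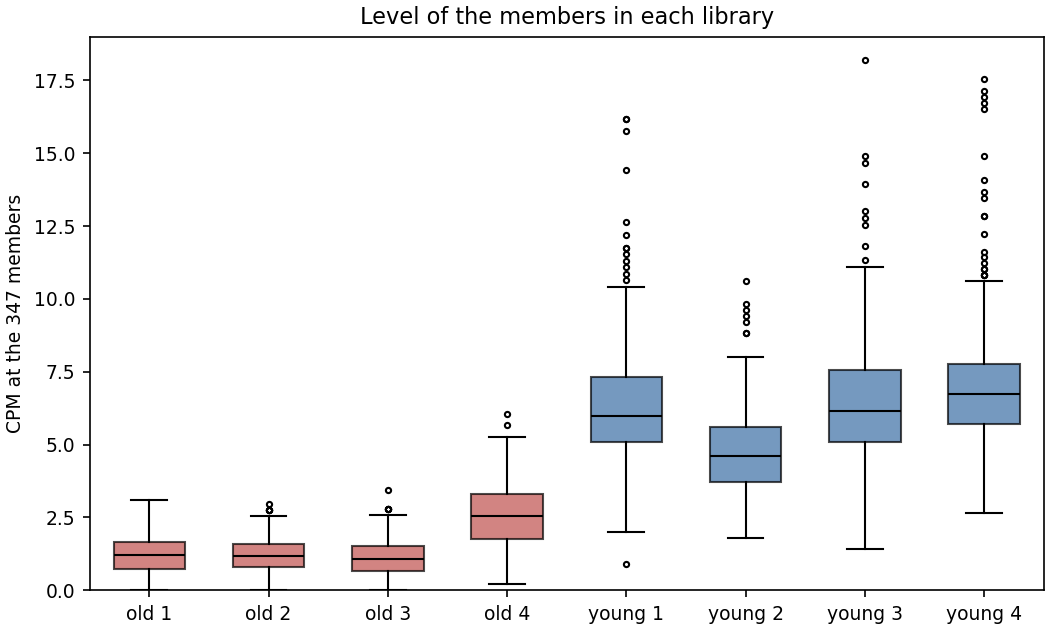
CPM at the 347 members in each library, old libraries in red on the left and young ones in blue on the right; lines are medians, boxes the middle 50% of members, whiskers reach at most 1.5 box lengths and circles are members beyond them. Old replicate 4, with a median of 2.53 CPM, lies above the other old libraries, and young replicate 2, with 4.61 CPM, below the other young ones.

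In all, 300 members, or 86.5%, had all 4 old libraries below all 4 young libraries, where 11% of the 73164 tested peaks did. The rule used these values, so nothing is read from it. Of the other 47 members, old replicate 4 was the highest old library at 46, and the lowest young library was replicate 2 at 28, replicate 3 at 10 and replicate 1 at 9. Without old replicate 4 the number with no overlap was 345, and without young replicate 2 it was 324. Leaving out old replicate 1, 2 or 3 kept it at 300. Leaving out a library can only raise such a count at any set of peaks. The same shares over all tested peaks are not given here, so nothing is read from these counts either.

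To read the same measure in a library that had no part in the choice, the rule was applied to 7 libraries and the eighth was looked up. When old replicates 1, 2 and 3 were held out in turn, 308, 296 and 296 peaks were chosen, and the held-out library had a median of 1.19, 1.18 and 1.07 CPM at them. It lay below all 4 young libraries at 96.8%, 99.3% and 98.0% of them. When old replicate 4 was held out, 722 peaks were chosen, of which 338 were members. Its median at these was 3.70 CPM, and it lay below all young libraries at 65.5% and above the other 3 old libraries at 89.2%. The libraries that each held-out one was compared with had a part in the choice. The same shares over all tested peaks are not given here.

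Held-out young libraries showed the converse. Replicates 1, 3 and 4 had medians of 5.77, 5.67 and 6.32 CPM at the 351, 339 and 301 peaks chosen without them, and lay above all old libraries at 93.4%, 92.6% and 96.3%. Young replicate 2 had a median of 4.01 CPM at the 473 peaks chosen without it and lay above all old libraries at 83.7%. Here too the old libraries had a part in the choice, and shares over all tested peaks are not given. On a scale of summed CPM from 0 at the mean of the young libraries used to 1 at the mean of the old ones, held-out old replicates 1 to 3 sat at 1.03, 1.04 and 1.04, and old replicate 4 sat at 0.472. Young replicates 1, 3 and 4 sat at 0.0548, 0.0496 and -0.114, and young replicate 2 at 0.438. With both old replicate 4 and young replicate 2 held out, the other 6 libraries chose 887 peaks, at which old replicate 4 sat at 0.531 and young replicate 2 at 0.367. At peaks that opened in old cells, chosen by the mirrored rule (a mean of at least 5 CPM in old and below 2 CPM in the young libraries), held-out old replicate 4 sat at 0.536 and young replicate 2 at 0.143. What sets these 2 libraries apart was not tested.

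Across all peaks with enough counts to test, an edgeR quasi-likelihood fit with Benjamini-Hochberg adjustment called 10.4% lower and 10% higher in old HSCs at an adjusted p below 0.05. Of the members, 345 were tested, 329 were called lower and 0 higher. The 2 untested members, at chr1:120623652-120624161 and chr7:133457736-133458177, had too few libraries above the count minimum. Since the rule used the same contrast, nothing is read from these counts. At 15 of the 16 members tested but not called, old replicate 4 was the highest old library, with 1.75 to 6.04 CPM over the 16. At 14 of the 16, old replicates 1 to 3 lay below all young libraries. The median fitted log2 fold change of tested members was -1.89, against 0.01 over all tested peaks.

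The members were narrow for peaks open in young cells, though not among all peaks. Over all 126871 peaks the median width was 408 bases, with quartiles at 281 and 687 bases. The members had a median width of 500 bases, between 205 and 953, with quartiles at 407 and 613 bases. Other peaks with at least 5 CPM in young libraries had a median of 818 bases and quartiles at 588 and 1110 bases, and 33.0% of them were 1000 bases or wider, against 0 of the 347 members. Split into quintiles of width, peaks with at least 5 CPM in young libraries were members at 2.46% of the narrowest, up to 538 bases, and at 0 of 8485 of the widest, from 1185 bases. Width also went with level among the other peaks, so the widths were set side by side at like young levels. The old levels still differed, since by the rule members lay below 2 CPM in old libraries and the other peaks did not. At 5 to 6 CPM in young libraries the median width was 493 bases for 218 members and 558 bases for 4814 other peaks. At 6 to 8 CPM it was 500 and 607 bases (99 members), and at 8 to 15 CPM it was 557 and 735 bases (30 members). Peaks of the mirrored rule, 465 in number, had a median width of 590 bases. The median width of the peaks chosen was 512 bases without old replicate 4 and 486 bases without young replicate 2. These widths were not tested.

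The widest member, chr5:23713960-23714912, spanned 953 bases and had 1.19, 1.38, 1.505 and 3.12 CPM in old libraries, against 2.66, 6.01, 6.15 and 10.6 CPM in young ones. Its groups overlapped, since young replicate 1 was below old replicate 4. At chr10:20554512-20555414, of 903 bases, the old libraries had 1.43, 1.38, 0.860 and 2.53 CPM and the young ones 7.32, 8.81, 1.89 and 3.06 CPM. Here the overlap came from young replicate 3. The other 3 of the 5 widest, at chr6:67287556-67288493, chr4:104665619-104666542 and chr15:25251368-25252270, had old means of 1.54 to 1.85 CPM and young means of 5.28 to 5.82 CPM, with no overlap.

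The local number of peaks was close to that of other open peaks. Members had a median of 46 other peaks within 250000 bases, from 7 to 105, against 48 for other peaks with at least 5 CPM in young libraries. By quintile of that number, members made up 0.855%, 0.939%, 0.924%, 0.703% and 0.657% of such peaks, from the sparsest to the densest quintile. Peaks of the mirrored rule had a median of 26 other peaks within that distance. Without old replicate 4 the median for the peaks chosen was 48, and without young replicate 2 it was 46. The nearest other peak lay a median of 4084 bases from a member, centre to centre, and no member was more than 82825 bases from the next peak. It lay within 1000 bases at 8.36% of members, against 15% of the other peaks open in young cells.

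**Figure D4:**
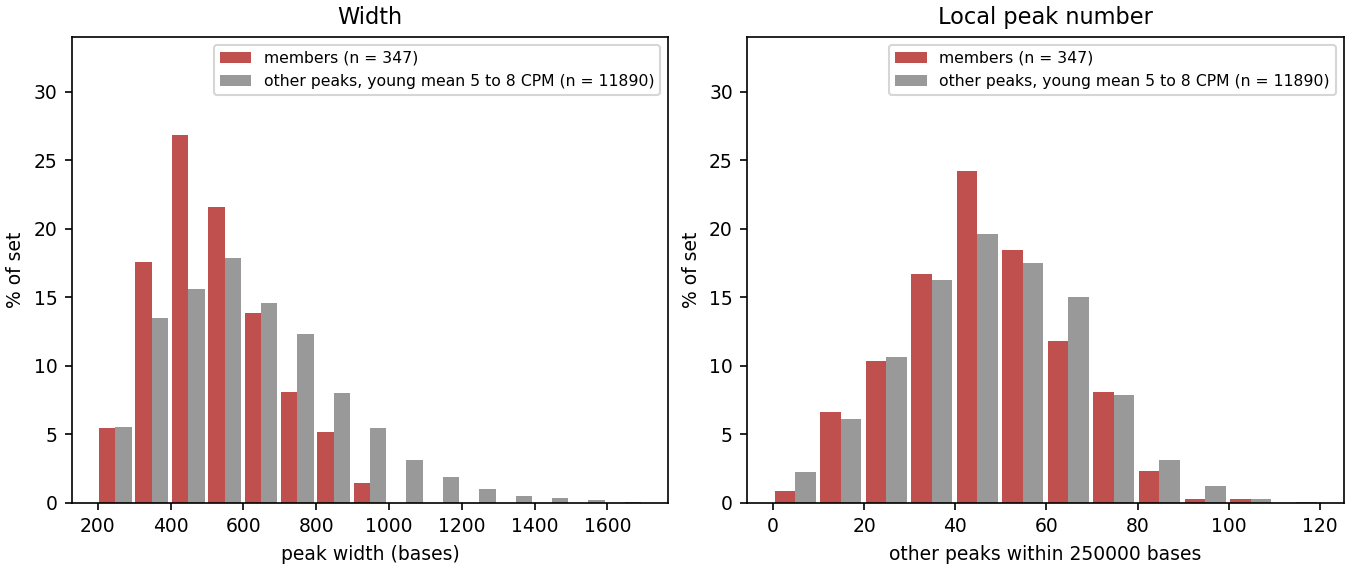
Share of peaks by width in bases (left) and by the number of other peaks within 250000 bases (right), for the 347 members (red) and 11890 other peaks with a young mean of 5 to 8 CPM (grey). Members end below 1000 bases while the other peaks have a tail beyond it, and the distributions of local peak number overlap over most of their range.

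The member with the sparsest surroundings, chr3:20724526-20725169, had 7 other peaks within 250000 bases. It had 1.43, 0.786, 0.860 and 2.73 CPM in old libraries and 7.76, 5.81, 6.86 and 6.94 CPM in young ones, with no overlap. The members at chr5:46350425-46350994 and chr5:46969710-46970195 had 8 and 9 such neighbours. The first of these had 1.43, 1.77, 0.860 and 2.14 CPM in old and 6.43, 6.21, 3.07 and 4.69 CPM in the young libraries. At chr5:46969710-46970195 the nearest other peak was 80880 bases away. At chr11:71098523-71099076, with 10 neighbours, old replicate 3 rather than 4 was the highest old library, at 2.58 CPM against 0.952 to 0.983 CPM in the others. The member at chr9:112348318-112348850, also with 10, had 1.53 ± 0.375 CPM in old and 5.34 ± 1.75 CPM in the young libraries (mean ± SD of 4 libraries each).

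Members lay on all autosomes and on the X chromosome. Chromosome 1 held 32, or 12.8 per 1000 peaks with at least 5 CPM in young libraries, followed in that rate by chromosome 13 with 21 members (11.6 per 1000). The lowest rates on autosomes were those of chromosome 14 with 8 members (4.90 per 1000) and chromosome 4 with 15 (5.24 per 1000). The X chromosome held 1 member, chrX:34229680-34230231, with 1.19, 0.590, 1.72 and 2.53 CPM in old and 5.102, 2.60, 7.09 and 5.92 CPM in the young libraries. It made up 0.288% of members, where the X chromosome held 2.07% of peaks with at least 5 CPM in young libraries. With each chromosome divided into 5 equal parts between its first and last peak, the last part held 30.8% of members and 27.0% of peaks with at least 5 CPM in young libraries, and the first part 16.1% and 17.0%. These rates were not tested.

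Members were few and lay far apart. With members linked when at most 100000 bases apart, 323 stood by themselves and 24 formed 12 pairs, with no larger run. The median gap between successive members on a chromosome was 3002190 bases. Of members 6.92% lay in such runs, a share that grows with the number of peaks chosen and was not compared with a set of the same size. Of the 465 peaks of the mirrored rule, a larger set, 69 lay in runs (14.8%), the largest of 4 peaks. Without old replicate 4, 144 of the 722 peaks chosen, or 19.9%, lay in runs, and without young replicate 2 it was 44 of 473, or 9.30%.

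The tightest pair lay at chr2:60010419-60014495, 4077 bases end to end with no other peak between. Its first peak had 0.952, 0.983, 2.15 and 3.90 CPM in old and 9.54, 6.61, 11.3 and 11.01 CPM in the young libraries. The second had 1.19, 1.18, 2.15 and 2.14 CPM in old and 3.99, 3.81, 7.33 and 10.4 CPM in the young libraries, so the groups were apart at both. The pair at chr1:193151828-193158898 also had no peak between its members. Its second peak, from 193158307, had 0.714, 0.393, 1.07 and 1.17 CPM in old and 10.6, 5.41, 8.27 and 8.77 CPM in the young libraries.

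In 3 further pairs the peaks between the members were not alike. At chr9:108901145-108924706 the members summed to 1.78 ± 1.42 CPM in old and 11.1 ± 1.37 CPM in the young libraries (mean ± SD of 4 libraries each), while the other peaks between them summed to 59.4 ± 3.32 CPM in old and 58.6 ± 2.41 CPM in the young libraries. At chr7:3443130-3483855 the members had 2.47 ± 0.494 CPM in old and 13.1 ± 2.52 CPM in the young libraries, and the other peaks 4.30 ± 0.872 and 3.76 ± 0.849 CPM. At chr5:101001105-101031290, by contrast, the other peaks were also lower in sum, at 23.1 ± 4.57 CPM in old and 41.3 ± 4.26 CPM in the young libraries, and 2 of the 3 tested there were called lower. That pair lies inside the longest run of called lower peaks in the data, at chr5:100590981-101073283 with 20 called peaks, of which 2 were members. These 2 were the second peak of the pair, chr5:101030884-101031290, and the first peak of the run, chr5:100590981-100591387. The first peak of the pair, chr5:101001105-101001406, was not called. It had 0.238, 0.786, 0.645 and 4.09 CPM in old and 9.09, 10.6, 2.13 and 7.55 CPM in the young libraries, so that old replicate 4 lay above young replicate 3 there.

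Called members lay in runs of called peaks about as often as other peaks called lower. Among peaks called lower, 31.9% of the 329 called members stood outside any run of peaks called lower (each at most 100000 bases from the next, with no peak called higher between), against 33.9% of all 7634 peaks called lower. Runs of 5 or more held 17.9% of the called members and 16.9% of all peaks called lower.

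Among peaks next to a member, which the rule did not choose, the share called lower in old HSCs was above that of all tested peaks and the share called higher was below it. Of 405 tested peaks that were not members and lay within 10000 bases of one, 84 were called lower (20.7%) and 13 higher (3.21%), where the background was 10.4% lower and 10% higher. Most of them were called in neither direction. Their median log2 fold change was -0.14, against 0.01 over all tested peaks. With each library left out in turn, 13.3% to 30.4% of such peaks were called lower, where the background was 6.90% to 15.5%, and 2.09% to 6.89% were called higher. Without old replicate 4 the share called lower was 30.4%, against a background of 15.5%, and without young replicate 2 it was 18.9%, against 10.5%. Neighbours and members were read in the same libraries, so what a library does to a whole region is in both.

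The share called lower was larger within 10000 bases of members than beyond. Peaks called lower were 30 of 161 at 1000 to 5000 bases from a member (18.6%), 50 of 232 at 5000 to 10000 bases (21.6%), 14.2% at 10000 to 25000 bases and 11.4% at 100000 to 250000 bases. Peaks called higher were 3.11%, 3.45%, 4.14% and 7.68% in the same bands. Beyond 250000 bases, 9.64% were lower and 10.5% higher. Within 1000 bases there were 12 tested peaks, 4 of them lower and 0 higher. Around peaks of the mirrored rule the shares ran the other way, with 30.2% called higher and 4.63% lower within 10000 bases. The nearest other peak of a member was itself a member in 3 cases. In 207 cases it was a tested peak that was not a member, and of these 43 were called lower, 4 higher and 160 neither.

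**Figure D5:**
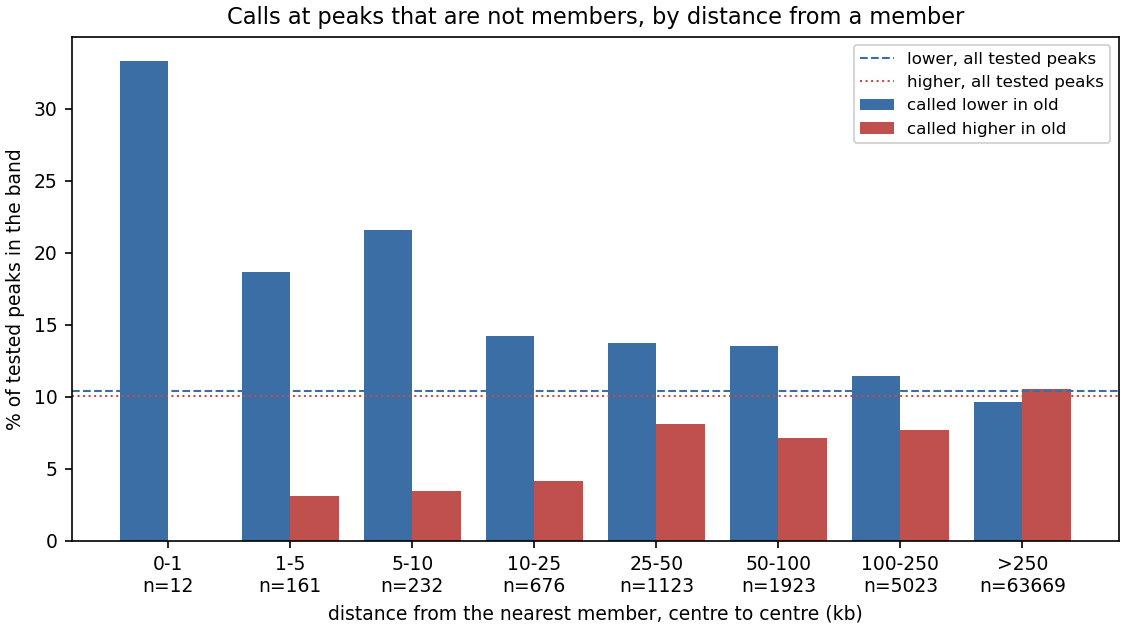
Share of tested peaks called lower (blue) and higher (red) in old HSCs by distance from the nearest member, members themselves left out; n is the number of peaks in each band, and the dashed and dotted lines give the shares over all tested peaks, 10.4% lower and 10% higher. The share called lower is 18.6% at 1000 to 5000 bases, 21.6% at 5000 to 10000 bases and 9.64% in the farthest band, and the share called higher is 10.5% in the farthest band; the nearest band holds 12 peaks.

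Windows of 100000 bases were read in the same way once the members' own counts were removed. Members lay in 338 windows, 9 of which held a pair, and 332 had enough other counts to test. Of these, 103 were called lower (31.0%) and 14 higher (4.22%) by the edgeR quasi-likelihood test, with 14.5% lower and 14.4% higher over all 16757 tested windows. Their median log2 fold change was -0.13, against -0.01 over all windows, and 71.7% were below 0, against 50.9%. Most windows with a member were called in neither direction. With each library left out in turn, 21.4% to 39.5% of the windows with a member were called lower, where the background was 9.05% to 18.8%. The highest of these, 39.5%, was without old replicate 4, and without young replicate 2 it was 30.1%. With windows of 25000 bases, 63 of 259 were called lower, or 24.3%, against a background of 11.7%.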

How the data were processed

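Old and young HSCs were profiled by Omni-ATAC with Nextera libraries, per the labels' protocols. The table the authors deposited holds raw whole-number read counts for every peak of a single peak set. Per the submitters' processing notes, MACS2, Bowtie2, Picard, SAMtools, Trim Galore and FastQC were used, with mm9. How peaks were merged and counted, and any shift of read ends, is not given in the sources used here.

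CPM was computed over column totals of all peaks. The members, lists and comparisons were chosen with earlier results of these data known. Peaks were tested with edgeR 4.0.16 (filterByExpr with a minimum count of 10 and a minimum total of 15, TMM, robust quasi-likelihood fit, group only) in R 4.3.3, with Benjamini-Hochberg adjustment over the 73164 peaks tested. Counts of peaks that were not members were summed in windows by peak centre and tested the same way. Fold changes are old minus young. The fits were tried on simulated counts with the same spread for all peaks and no library set apart within its group. Old replicate 4 and young replicate 2 differ from that setting, so the simulation does not cover such libraries. Peaks are named by a rule: the 8 members strongest in young libraries, the 5 with the smallest p, the 5 lowest in old libraries, the 5 widest, the 5 with the fewest neighbours, those of the 5 runs with most members (shortest first) and the 2 nearest each side of each threshold. The member on the X chromosome, the 2 untested members, the longest run of peaks called lower with its first peak, and the run on chromosome 4 were named after their values were seen. Gene lists, marker lists and sequences were not analysed here, since the reference tables used are of another build. Alternatives were DESeq2 1.42.0, limma 3.58.1, other scalings, no filter, other thresholds and distances, a replicate block and leaving out each library.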

Additional observations from a re-analysis of the deposited data

Results flagged for a closer look

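In each group, the 4 libraries were compared at each of the 49 peaks named in the text, members or not, and in the summed level of all members, 100 groups of values in all. In 15 of them 1 library lay far from the rest. Independent, normally spread values would flag about 1 in 20 groups, or 5 of 100. These groups share the same libraries and come mostly from peaks chosen by these values, so the 15 cannot be set against chance. Old replicate 4 was the library in 12 of the 15. Summed over the members it had 902 CPM, against 395 to 413 CPM in the other old libraries. It was high at chr5:114226911-114227268 with 3.90 CPM (others 0.430 to 0.786), at chr6:113467500-113468165 with 1.56 CPM (0 to 0.215) and at chr4:134748676-134749222 with 4.48 CPM (0 to 0.714). It was also high at chr1:93948755-93949210 with 3.70 CPM (1.19 to 1.57), at chr5:23713960-23714912 with 3.12 CPM (1.19 to 1.505) and at chr5:101001105-101001406 with 4.09 CPM (0.238 to 0.786). At chr9:108901145-108901488 it had 2.53 CPM, against 0.197 to 0.476 CPM in the other old libraries, and young replicate 3 was lowest there with 4.96 CPM, against 5.51 to 5.61 CPM in the other young ones. At the threshold members chr6:54478338-54479106 and chr2:127911133-127911615 it had 5.65 CPM (0.645 to 0.983) and 3.31 CPM (0 to 0.476). At chr4:134716060-134716445 and chr4:134794910-134795486, which are no members and were picked from a run found without old replicate 4, it had 5.07 CPM (1.67 to 2.16) and 7.60 CPM (1.67 to 2.36).

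Old replicate 3 was high at chr11:71098523-71099076 with 2.58 CPM (others 0.952 to 0.983). Young replicate 2 was low at chr2:28651852-28652242 with 6.81 CPM (12.6 to 13.0).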

How the results depend on the processing

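For the 47 named peaks with a fit (the 2 untested members have none), 658 values were computed. They covered other scalings, filters, tests, the block and left-out libraries. All were lower in old HSCs. Most of these peaks were chosen by the rule, and the rest lay at its thresholds or in a run it found without old replicate 4. Their direction was therefore largely set by the choice, and nothing is read from it. Of the values, 621 kept their side of the adjusted p threshold, 23 lost the call and 14 gained it. With each library left out in turn, peaks higher in old HSCs numbered 5184 to 10997 and peaks lower 5199 to 11802. Members called lower numbered 305 to 344 (87.9% to 99.1% of those tested), which the rule largely fixed. Of peaks near members, 56 to 128 were called lower (13.3% to 30.4%), against 6.90% to 15.5% of all tested peaks. Of windows with a member, 71 to 131 were called lower (21.4% to 39.5%), against 9.05% to 18.8% of all tested windows. With the rule itself applied without each library, it found 296 to 722 peaks, of which 16 to 144 lay in runs and 267 to 714 had no overlap; the median width was 486 to 512 bases and the local peak number 44 to 48. The highest of each of these counts and medians was without old replicate 4. Counts without overlap rest on the values that the rule used, so nothing is read from them.

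With a young mean of at least 10 CPM the rule found 11 members, with 0 in runs, 10 without overlap and 10 called lower, and 2 nearby peaks and 5 windows were called lower. With an old mean below 1 CPM it found 39, with 2 in runs, 39 without overlap and 38 called lower, and 16 nearby peaks and 10 windows called lower. With group medians it found 559, with 70 in runs, 361 without overlap (64.6%) and 451 of 557 tested called lower (80.97%), and 155 windows were called lower. Without old replicate 4 and young replicate 2 together, an alternative chosen after seeing the data, it found 887, with 207 in runs and 882 without overlap. The rule used these values, so nothing is read from members called or without overlap under any of these settings. With all libraries, 10.4% of tested peaks were called lower and 11% had no overlap. Of all tested windows without the 347 members, 14.5% were called lower. Numbers tested near the smaller sets are not given here, so no share is read from those counts. Linking at 10000 or 500000 bases put 4 or 84 members in runs. A radius of 100000 bases gave a median of 19 other peaks. Within 50000 bases 334 of 2204 peaks were called lower, and within 250000 bases 1169 of 9150. With windows of 25000 bases 63 were called lower.

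With the replicate number as a replicate block, 8111 of the 73164 tested peaks were higher and 8647 lower in old HSCs. Called lower were 343 of 345 members, 91 of 405 nearby peaks and 117 of 332 windows with a member. The count of members largely follows from the rule. The share of all tested windows called lower with the block is not given here, so nothing is read from the window count. Same-numbered old and young libraries correlated at -0.014, 0.0736, 0.0495 and 0.179 in their deviations from the group means, so they were taken to share a number only; of the old libraries, replicates 2 and 4 correlated best with their own number. At these depths the old levels of members rest on few counts per library. The causes of these changes were not tested.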

Other observations

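Without old replicate 4 the rule gave a run of 4 peaks at chr4:134716060-134795486, which was picked for its size after its values were seen. With all libraries 1 of the 4, at chr4:134748676-134749222, was a member. At chr4:134716060-134716445 the old libraries had 1.67, 2.16, 2.15 and 5.07 CPM and the young ones 6.65, 5.61, 6.38 and 6.94 CPM. At chr4:134734682-134735320 they had 0.714, 2.75, 1.505 and 4.29 CPM in old and 6.43, 4.01, 5.91 and 5.92 CPM in the young libraries. At chr4:134794910-134795486 they had 1.67, 2.36, 1.93 and 7.60 CPM in old and 5.99, 6.01, 9.46 and 7.96 CPM in young libraries. At all 3, old replicates 1 to 3 lay below every young library, but low levels in these 3 libraries are what the rule without old replicate 4 chose. Old replicate 4 lay within the young range at chr4:134734682-134735320 and chr4:134794910-134795486, and below it at chr4:134716060-134716445.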
